A study of Mus musculus with 2 samples.

Results

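The stomach wall carries several aquaporins, membrane channels for water and small solutes, and 8 of their genes were described here on a pair of mouse stomach arrays. They were Aqp1, Aqp3, Aqp4, Aqp5, Aqp7, Aqp8, Aqp9 and Aqp11, taken by gene symbol from the authors' summary of array levels. The rule names symbols and sets no threshold on a measured value, but the list was drawn up with earlier results of these data known. They make up 8 of 30894 named genes, and each had 1 probe set of 19 to 26 probes. The tested stomach came from a mouse with the genotype Atp4bCre; MIST1-LSL, and the control stomach from a mouse with Atp4bCre alone, so both mice carried the Cre driver. Atp4bCre makes Cre recombinase from the promoter of the beta subunit of the proton pump, which is active in parietal cells, the acid-secreting cells. Cre removes a stop cassette from the MIST1-LSL allele and so turns on MIST1, a transcription factor of secretory cells encoded by Bhlha15. Both mice were 12 weeks old, of a mixed background crossed back to C57/B6, and gave 1 stomach each. The tissue is labelled as corpus, the acid-secreting region, while the design text speaks of whole stomachs. The comparison asks how gene levels differ between a stomach labelled as expressing MIST1 in parietal cells and its control.

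Aquaporins are small membrane proteins that work as tetramers, in which each subunit has its own pore. Water channels in the strict sense pass water along an osmotic gradient, aquaglyceroporins also pass glycerol, and a pair of distant members, Aqp11 and Aqp12, sits in membranes inside the cell. In the stomach, AQP4 is known as the water channel of the basolateral membrane of parietal cells, AQP5 is found in pyloric glands, AQP3 in the basal layers of squamous epithelium and AQP1 in small vessels. Fluid secretion pairs such channels with ion transporters, because water follows the salt that is moved.

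Levels are given on the log2 scale after RMA, the method by which the authors normalized the arrays, and differences are MIST1-LSL minus control, also log2. The arrays had medians of 4.60 for MIST1-LSL and 4.64 for control over 41345 probe sets, and 17336 genes had at least 1 level at or above a floor of 4.62, the median of all values. Below the floor, signal was not shown to exceed background. There was 1 array per genotype, so differences carry no replicate error and were not tested, and the number of arrays limits the precision. The only spread the arrays hold is between probe sets of 1 gene, whose differences had an SD of 0.196 over 422 genes, and it does not cover variation between mice. Bhlha15 itself read 5.30 in MIST1-LSL and 5.26 in control, a difference of 0.037. Higher MIST1 RNA in the stomach labelled MIST1-LSL was therefore not seen with this probe set, and the sources used here do not say which part of the transcript its probes cover. The proton pump genes Atp4a (11.43 in MIST1-LSL, 11.53 in control) and Atp4b (12.11 in MIST1-LSL, 12.13 in control) were high on both arrays.

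None of the 8 aquaporins differed by 2-fold (1 log2 unit) between the MIST1-LSL and the control stomach. At that size 1.44% of all genes at or above the floor differed (0.969% higher and 0.473% lower in MIST1-LSL), so a count of 0 among 8 is what that background would leave. At a smaller size of 1.5-fold, which 6.8% of genes passed, Aqp4 passed and the other 7 did not. Of the 8, 4 were higher and 4 lower in MIST1-LSL, with differences from -0.77 (Aqp4) to 0.57 (Aqp3) and a median of -0.08. The median over all genes at or above the floor was -0.027. A floor level was reached on at least 1 array by 7 of the 8 and on both arrays by 5. Of those 5, 4 were higher and 1 (Aqp1) lower, with a median of 0.08, while the other 3 lower members, Aqp4, Aqp7 and Aqp8, were below the floor on the MIST1-LSL array. The differences of Aqp9 and Aqp11 were smaller than the probe-set SD. In tissue RNA, fewer cells of a type and less RNA per cell cannot be told apart.

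**Figure D1:**
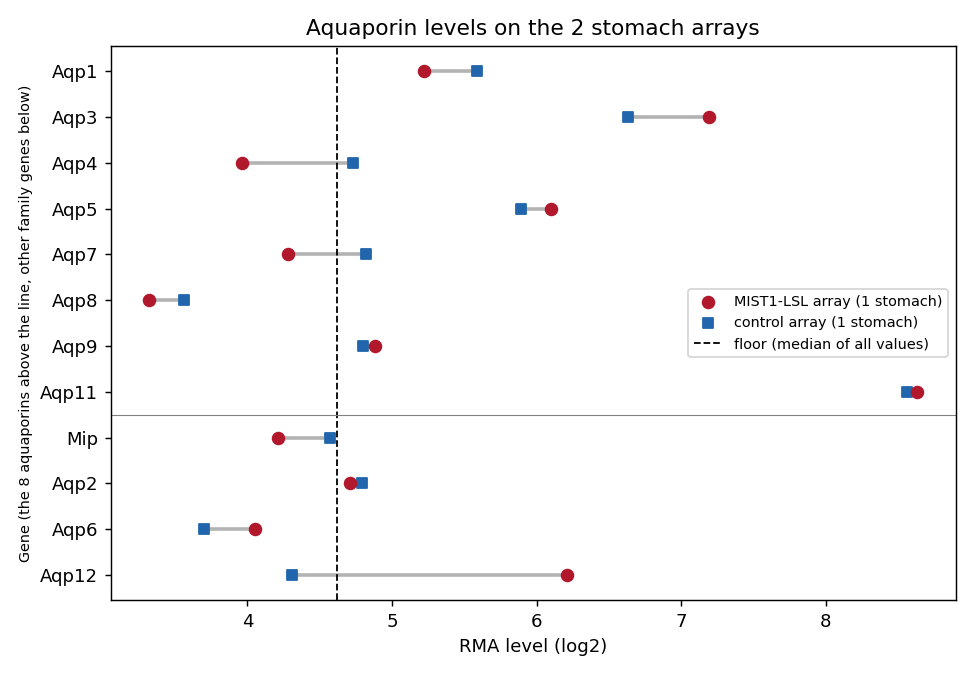
Log2 RMA level (x axis) of each aquaporin gene (y axis) on the MIST1-LSL array (red circles) and the control array (blue squares), 1 stomach each, with the floor of 4.62 as a dashed line. Aqp4 and Aqp7 lie below the floor on the MIST1-LSL array and above it on the control array, Aqp8 lies below it on both, and levels of different genes come from different probes and are not comparable with each other.

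Among the water channels, Aqp4 had the largest difference of the 8. It read 3.96 on the MIST1-LSL array, below the floor, and 4.73 on the control array, just above it. The difference of -0.77 is a 1.71-fold lower level in MIST1-LSL, in linear intensity 15.6 against 26.6. Of all genes at or above the floor, 3.02% differed by at least as much in either direction. Among 8061 named genes whose mean level lay within 0.5 of that of Aqp4, 3.13% did. The size is uncertain because the MIST1-LSL level is under the floor.

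Aqp1, the water channel of endothelium and red cells, read 5.22 in MIST1-LSL and 5.59 in control, a difference of -0.37. Both levels were above the floor, and 20.3% of genes of like level differed by at least as much. Aqp5, a channel of gland cells, read 6.10 in MIST1-LSL and 5.89 in control, 0.21 higher and close to the SD between probe sets. Aqp8, known from pancreatic acinar cells, colon and liver, stayed below the floor, with 3.32 in MIST1-LSL and 3.56 in control. For Aqp8 the difference of -0.24 therefore compares 2 levels that were not shown to exceed background.

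The aquaglyceroporins Aqp3, Aqp7 and Aqp9 shared no direction. Aqp3, a channel for water and glycerol in basal cells of squamous epithelium, read 7.19 in MIST1-LSL and 6.63 in control. It was 0.57 higher, a 1.48-fold difference (146 against 98.9 in linear intensity) and the highest of the 8. Both levels lay well above the floor, and 4.98% of 2532 genes of like level differed by at least as much. Aqp7, the channel through which adipocytes release glycerol, read 4.28 in MIST1-LSL, below the floor, and 4.82 in control. The difference of -0.54 is a 1.45-fold lower level, and 9.7% of genes of like level differed by at least as much. Aqp9, a glycerol channel of liver and leukocytes, read 4.88 in MIST1-LSL and 4.80 in control, a difference of 0.08.

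Aqp3 and Aqp7 are the pair of aquaglyceroporins with the widest gap between their differences, and they are neighbours: both lie on chromosome 4, where the deposited annotation gives band B1 for each, and no other protein-coding gene of the reference table stands between them. Their promoters are shown because 1 was higher and 1 lower in MIST1-LSL. They come from RefSeq on build GRCm38.p6, from 250 bases before to 50 after the start, and run 5′ to 3′ on the strand of the gene. Capitals mark each match to CANNTG, the E-box letters that proteins of the MIST1 class (basic helix-loop-helix) bind, searched on both strands.
Aqp3, chr4:41098134-41098433, minus strand: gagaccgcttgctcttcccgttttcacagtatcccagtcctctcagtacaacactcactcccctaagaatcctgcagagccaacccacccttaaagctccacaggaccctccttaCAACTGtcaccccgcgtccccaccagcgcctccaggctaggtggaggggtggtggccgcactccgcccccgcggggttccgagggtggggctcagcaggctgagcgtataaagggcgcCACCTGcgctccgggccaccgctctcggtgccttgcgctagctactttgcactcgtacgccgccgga
Aqp7, first start, chr4:41048087-41048386, minus strand: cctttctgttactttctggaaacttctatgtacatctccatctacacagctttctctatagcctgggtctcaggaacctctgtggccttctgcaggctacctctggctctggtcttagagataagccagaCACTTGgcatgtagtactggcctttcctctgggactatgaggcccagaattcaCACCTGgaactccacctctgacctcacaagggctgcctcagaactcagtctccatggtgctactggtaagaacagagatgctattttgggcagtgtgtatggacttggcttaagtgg
Aqp7, second start, chr4:41047913-41048212, minus strand: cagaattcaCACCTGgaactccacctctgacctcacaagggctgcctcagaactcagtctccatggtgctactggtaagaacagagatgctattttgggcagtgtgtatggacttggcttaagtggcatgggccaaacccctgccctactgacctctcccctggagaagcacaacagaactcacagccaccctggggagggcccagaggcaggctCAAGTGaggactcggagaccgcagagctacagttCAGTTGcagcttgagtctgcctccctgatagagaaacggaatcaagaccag
The Aqp3 promoter held 2 matches, at 135 and 17 bases before the start, and the letters TATAAA on the gene strand, which 8.32% of 32851 promoters of the same length hold. The first Aqp7 promoter also held 2 matches and the second 3, and their windows overlap so that 1 match is shown in both. At least 2 matches occur in 39.6% of all promoters and at least 3 in 17.6%, so such counts are common.

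Of the intracellular pair, Aqp11 was among the 8. It encodes a channel of the endoplasmic reticulum, and its loss in mice is known to give cystic kidneys. It read 8.63 in MIST1-LSL and 8.56 in control, 396 against 377 in linear intensity. The difference of 0.07 lay within the SD between probe sets, and 75.8% of genes of like level differed by at least as much.

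The other family genes on the arrays were Aqp2, Aqp6, Aqp12 and Mip, and Aqp12 alone among all 12 family genes passed the 2-fold size. Aqp12, a channel of pancreatic acinar cells, read 6.21 in MIST1-LSL and 4.31 in control, below the floor. It was 1.90 higher, a 3.72-fold difference (73.8 against 19.8 in linear intensity). Its size and rank are uncertain, because the control level was not shown to exceed background and Aqp12 passed the floor through the MIST1-LSL array alone. In that direction the share of genes past 2-fold was 0.969%, and 0.265% of genes had a higher difference than Aqp12. Its promoter, printed for that difference, carried 4 E-box matches within 91 bases before the start, and 6.49% of all promoters hold at least 4.
Aqp12, chr1:93006084-93006383, plus strand: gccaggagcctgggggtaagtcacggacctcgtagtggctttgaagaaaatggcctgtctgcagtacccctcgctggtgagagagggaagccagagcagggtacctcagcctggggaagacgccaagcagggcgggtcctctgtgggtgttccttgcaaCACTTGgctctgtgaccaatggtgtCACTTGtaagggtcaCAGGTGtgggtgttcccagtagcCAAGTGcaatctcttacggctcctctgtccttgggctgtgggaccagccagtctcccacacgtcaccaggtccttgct
Aqp2, the vasopressin-regulated channel of the kidney collecting duct, read 4.71 in MIST1-LSL and 4.79 in control. Aqp6, a channel of kidney intercalated cells, and Mip, the aquaporin of lens fibres, were below the floor on both arrays (Aqp6 4.05 in MIST1-LSL and 3.70 in control, Mip 4.21 in MIST1-LSL and 4.57 in control). Aqp2, Aqp5 and Aqp6 stand next to each other among the protein-coding genes of chromosome 15, and their differences were -0.08, 0.21 and 0.35.

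**Figure D2:**
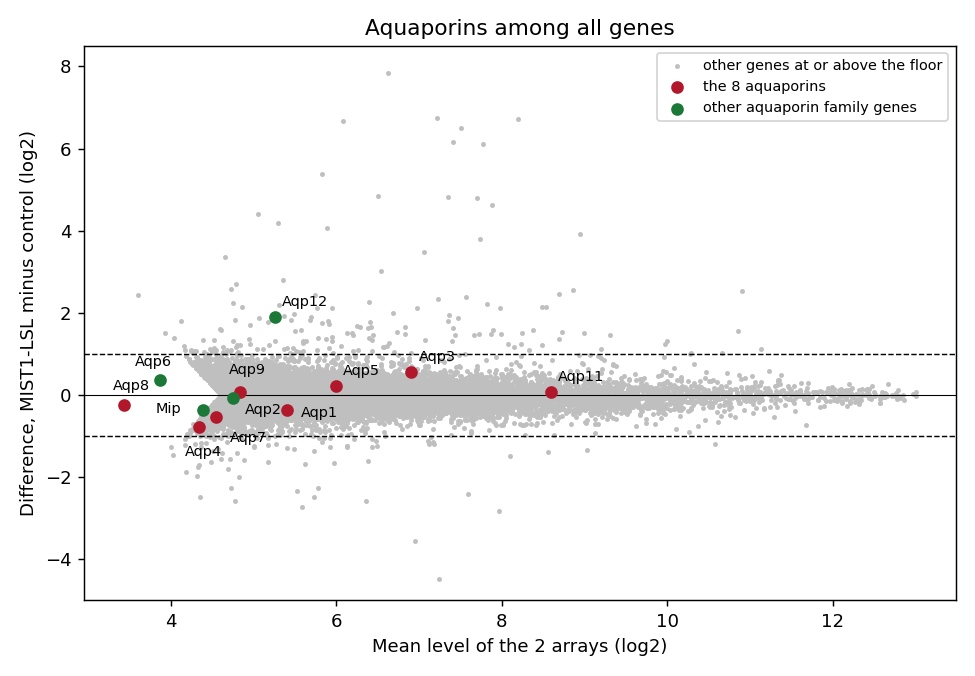
Difference in log2 level, MIST1-LSL minus control (y axis), against the mean log2 level of both arrays (x axis), for the 8 aquaporins (red), the other family genes (green) and all other genes at or above the floor (grey), with dashed lines at a 2-fold difference. The 8 aquaporins lie between -0.77 and 0.57, inside the dashed lines, and Aqp12 lies above them at 1.90.

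Promoters were found for 7 of the 8 aquaporins and for 11 of the 12 family genes. E-box letters occurred in the promoters of all 7 by at least 1 start, as they do in 72.3% of all promoters. Aqp1, Aqp5 and Aqp11 held 1 match each and Aqp8 held 2, while the first Aqp9 start held none and the second 3. The form CATATG, described at MIST1 target genes, was in none of the 13 windows of the family, and it is in 3.91% of all promoters. The form CAGCTG was in the windows of Aqp2, Aqp6 and Mip, and it is in 16.3% of all promoters. A match describes letters and not a bound site. The Aqp5 window was 79.7% G and C, above 98.8% of promoters, whereas the first Aqp9 window was 41.3%.

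**Figure D3:**
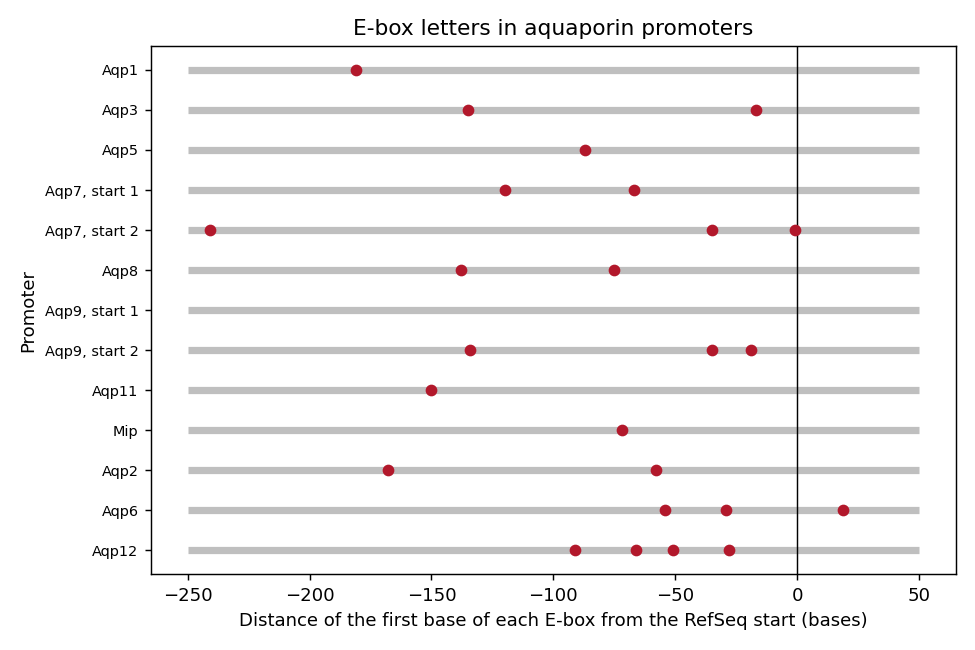
Position of each E-box match (red points) in the promoter windows of the family genes (y axis), as the distance in bases of its first base from the RefSeq start (x axis, 0 at the start). Aqp12 holds 4 matches, the most of any window, and the first Aqp9 start holds none.

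Partner and marker genes of the cells that carry each channel were set beside the aquaporins, as counts and medians with no test. Some genes are shared between lists, so the counts of these lists are not separate. Among them, Slc26a7, Slc26a9 and Kcnj16 are parietal markers and also partner genes. Lpl, Plin1 and Pnpla2 are in both the adipocyte and the glycerol list. For comparison, 7783 of all 17336 genes at or above the floor were higher and 9211 lower in MIST1-LSL. Of 19 parietal cell markers, 17 were at or above the floor, with 4 higher, 13 lower and a median of -0.18. The chloride and bicarbonate transporter Slc26a7 was at least 2-fold lower (4.48 in MIST1-LSL, below the floor, and 6.97 in control). Ppargc1a, a coactivator of mitochondrial genes, differed by -0.90, the potassium channel gene Kcnj15 by -0.71 and the chloride channel gene Slc26a9 by -0.55. The summed linear intensity of the parietal list was 13494 in MIST1-LSL and 14510 in control. Cckbr and Esrrb were below the floor on both arrays. The part of these markers in the Aqp4 difference of -0.77 was not tested.

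The genes of proteins that anchor AQP4 or work beside it did not share the size of the Aqp4 difference in RNA. Of 10 such genes 9 were at or above the floor, 5 higher and 4 lower, with a median of 0.07. Dmd, encoding dystrophin, differed by 0.29 and its relative Utrn by -0.29. The potassium channel genes Kcnj16 and Kcnj10 differed by -0.55 and 0.23. Trpv4, an osmosensitive cation channel, was below the floor on both arrays. Ion transporters and channels of fluid secretion had 5 members higher and 12 lower of 17 at or above the floor, with a median of -0.24 and Slc26a7 at least 2-fold lower. Slc26a6, an anion exchanger, differed by -0.43, and Kcnma1, a calcium-activated potassium channel gene, by 0.58. The size for Kcnma1 is uncertain, because its control level of 4.11 was below the floor. Genes of the osmotic response had 1 member higher and 8 lower, with a median of -0.13 and none at 2-fold. Among them the kinase gene Sgk1 differed by -0.49 and the transcription factor gene Nfat5 by -0.39.

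Most adipocyte genes were lower in MIST1-LSL, as Aqp7 was. Of 11 adipocyte markers, 9 were at or above the floor, with 1 higher (Cidec, at 0.37), 8 lower and a median of -0.45. Among the 8 lower, Pparg (-0.017) and Slc2a4 (-0.07) differed by less than the probe-set SD of 0.196. Cfd, which encodes adipsin, read 4.36 in MIST1-LSL, below the floor, and 6.69 in control. Lpl, lipoprotein lipase, read 7.87 in MIST1-LSL and 9.26 in control. Fabp4 and Retn differed by -0.89 and -0.87. Adipoq, the gene of the adipocyte hormone adiponectin, was below the floor on both arrays (4.17 in MIST1-LSL, 4.58 in control), as was Lep. The summed linear intensity of the list was 2194 in MIST1-LSL and 3482 in control. Fabp4, Pparg and Lpl had the highest levels of the list and weigh most in that sum. The part of the adipocyte markers in the Aqp7 difference of -0.54 was not tested. Genes that make, store or use glycerol had 2 members higher, 11 lower and 1 equal of 14, with a median of -0.12. Cd36, a fatty acid transporter, differed by -2.81, Pnpla2, the lipase that starts triglyceride breakdown, by -0.45, Plin1 by -0.34 and the glycerol kinase gene Gk by -0.32.

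Most forestomach squamous genes were higher in MIST1-LSL, as Aqp3 was. Of 12 markers at or above the floor, 9 were higher and 3 (Ivl, Sprr1a and Krt4) lower, with a median of 0.20 and none at 2-fold. That median is close to the probe-set SD of 0.196. Sprr3 (0.033) and Krt13 (0.19) among the higher, and Sprr1a (-0.08) and Krt4 (-0.05) among the lower, differed by less than that SD. The basal keratin genes Krt15 and Krt5 differed by 0.90 and 0.20, Dsc3 by 0.45 and Ivl by -0.39. The summed linear intensity was 6455 in MIST1-LSL and 6451 in control. The part of squamous tissue in the Aqp3 difference of 0.57 was not tested.

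Endothelial genes, set beside Aqp1, had 4 members higher, 5 lower and 1 equal of 10 at or above the floor, with a median of -0.029. Among the 8 at or above the floor on both arrays, 4 were higher, with a median of 0.021. Pecam1 differed by -0.30, while Cdh5 and Eng differed by 0.43 and 0.35. Their summed linear intensity was 338 in MIST1-LSL and 333 in control, and Tek and Tie1 were below the floor on both arrays. Of 8 red cell markers 5 were on the arrays and 2 at or above the floor, Hbb-bt at 0.50 and Alas2 at -0.16. Antral and pyloric genes, set beside Aqp5, had 1 member higher and 4 lower of 5. Bpifb1, a secreted epithelial protein, was 1.51 higher, whereas Gast (gastrin) differed by -0.26 and Pdx1 by -0.31. The median was -0.21, and -0.07 over the 3 at or above the floor on both arrays. The summed linear intensity was 1013 in MIST1-LSL and 477 in control, of which Bpifb1 made up 863 in MIST1-LSL and 303 in control, and the other 4 genes summed to 150 in MIST1-LSL and 174 in control. Mucous neck genes had a median of -0.032, with Wfdc2 1.06 higher and Muc6 at -0.64, and chief cell genes a median of -0.19, with Pga5 at -0.71. The part of these cells in the Aqp1 and Aqp5 differences was not tested.

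Pancreatic acinar genes were higher on the MIST1-LSL array, as Aqp12 was. All 21 markers were at or above the floor on the MIST1-LSL array, but 9 of them were below it on the control array. Of the 21, 19 were higher and 17 at least 2-fold higher, a size that 0.969% of all genes at or above the floor reached in that direction. The median was 4.06, whose size is uncertain because of those 9 control levels. Among the 12 at or above the floor on both arrays, 10 were higher and 9 at least 2-fold higher, with a median of 3.65. Pnlip, pancreatic lipase, read 10.55 in MIST1-LSL and 2.70 in control, and Prss2, a trypsinogen, 10.60 in MIST1-LSL and 3.85 in control, both below the floor in control. The summed linear intensity was 23980 in MIST1-LSL and 6569 in control. Clps, the gene of pancreatic colipase, was high on both arrays (12.28 in MIST1-LSL, 12.41 in control) and made up most of the control sum. The other 20 markers summed to 18995 in MIST1-LSL and 1138 in control. The part of acinar cells in the Aqp12 difference of 1.90 was not tested. Aqp8, the other channel known from acinar cells, stayed below the floor on both of these arrays. Genes of pancreatic and bile ducts had 1 member higher and 6 lower of 7 at or above the floor, a median of -0.26 and none at 2-fold. Spp1 differed by -0.57 and the secretin receptor gene Sctr by -0.43, and Cftr, the duct chloride channel, was below the floor on both arrays.

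**Figure D4:**
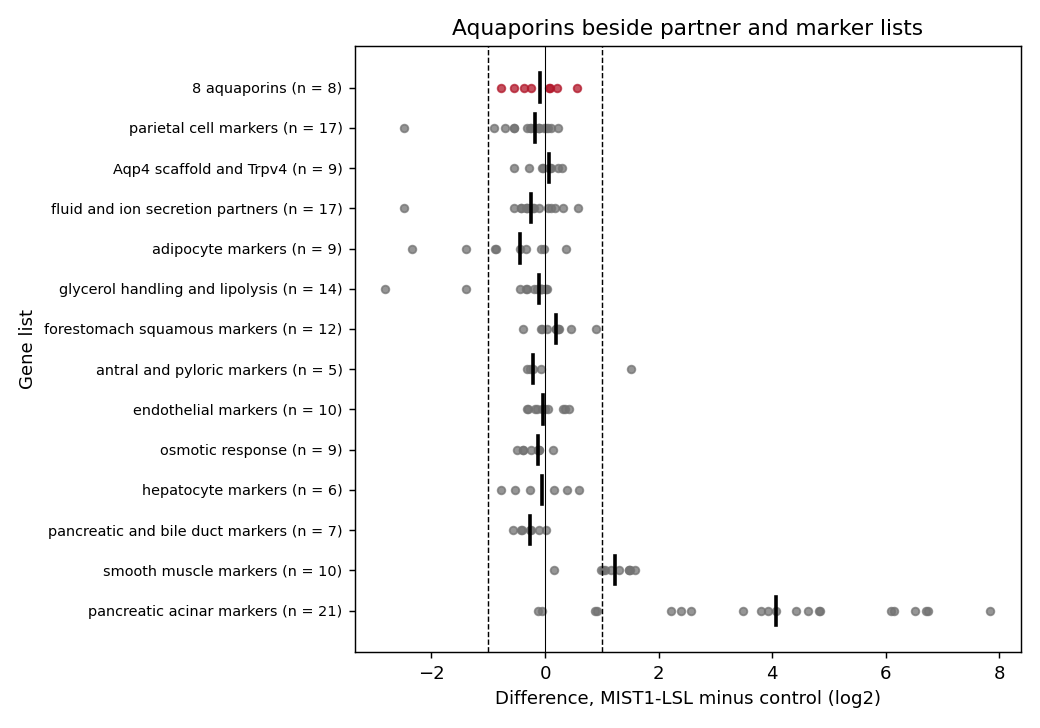
Difference in log2 level, MIST1-LSL minus control (x axis), of the 8 aquaporins (red points, Aqp8 below the floor included) and of the members at or above the floor of 13 partner and marker lists (grey points), with the median of each as a black bar and dashed lines at a 2-fold difference. The aquaporins lie between -0.77 and 0.57, while the acinar median is at 4.06 and the smooth muscle median at 1.23.

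Hepatocyte genes, set beside Aqp9, had 3 members higher and 3 lower of 6 at or above the floor and a median of -0.05. Cyp2e1 differed by -0.77 but read 4.38 in MIST1-LSL, below the floor, so its size is uncertain. Among the 5 at or above the floor on both arrays, 3 were higher, with a median of 0.16. Ahsg differed by 0.59, and Fgb and Tat were below the floor on both arrays. Neutrophil genes had 4 members higher and 1 lower of 5, with a median of 0.18. The lower member, Mpo, was below the floor in MIST1-LSL (4.38), and the 4 at or above it on both arrays had a median of 0.84. That median falls in a gap and is not a shift shared by the 4. Above it lie the alarmin gene S100a8, 1.76 higher, and S100a9, also at least 2-fold higher. Below it lie Cxcr2 (0.18) and Ltf (0.10), which differed by less than the probe-set SD of 0.196. The 5 further markers, Ly6g, Elane, Csf3r, Ngp and Camp, were below the floor. Intestinal epithelial genes had 4 members higher and 4 lower of 8 and a median of 0.10, with Slc5a1 and Alpi 1.08 and 1.04 higher. Slc5a1 (4.18) and Slc26a3 (4.38) were below the floor in control, so the size for Slc5a1 is uncertain. Among the 6 at or above the floor on both arrays, 2 were higher, with a median of -0.07. All 10 smooth muscle genes were higher, with a median of 1.23 (Acta2, smooth muscle actin, 9.17 in MIST1-LSL and 7.59 in control). Of these, 8 were at least 2-fold higher, a size that 0.969% of all genes at or above the floor reached in that direction. Skeletal muscle and glia can also carry AQP4. Of 6 skeletal muscle genes 4 were at or above the floor, 3 higher and 1 lower (Mylpf, at -0.12), with a median of 0.26. Ckm was below the floor in control (4.57), and the 3 at or above it on both arrays had a median of 0.025. Of 5 glial genes 3 were higher and 2 lower (Sox10 at -0.17 and Fabp7 at -0.0054), with a median of 0.21. S100b was below the floor in control (4.35). Among the 4 at or above the floor on both arrays, 2 were higher, with a median of 0.10. The part of these tissues in the Aqp4 difference was not tested.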

How the data were processed

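Affymetrix arrays measured RNA of 1 MIST1-LSL and 1 control stomach. Per the labels' protocols the RNA was amplified before it was labelled with biotin, a step that can alter relative levels. The deposited log2 levels were made with RMA and Partek, per the submitters' processing notes. No version, build or annotation is given in the sources used here. Per the file headers, the deposited workbook adds linear intensity (2 to the power of the log2 level), a ratio of MIST1-LSL to control (not used) and the number of probes.

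Probe sets were named by the first transcript of the deposited annotation, updated through RefSeq (GRCm38.p6): of 32471 with a gene, 21749 matched by accession, 2411 by gene identifier, 4218 by symbol and 219 by synonym. Each gene was represented by its probe set of highest mean level. Akr1b3, Hba-a1, Hbb-b1 and Hbb-bs matched no probe set. Named were all family genes, in each list at most 4 genes above the floor, by size of difference, and Atp4a, Atp4b, Pecam1, Adipoq, Lpl, Cd36, Krt5, Krt15, Gast and Bhlha15. Trpv4, Lep, Gk, Clps, Sprr1a, Sprr3, Krt4, Krt13, Ltf, Fabp7, Cidec, Pparg, Slc2a4 and the markers below the floor were named after their values were seen. The rule also asked for the genes nearest to Aqp4 in level, which are left out because levels of different probes are not comparable. For the same reason the summed intensities are only a comparison of the same probe sets between the arrays. Probe sets of high signal weigh most in them. The members and lists were chosen with earlier results of these data known. Python 3.11.15 with numpy 2.4.6, pandas 2.3.3, statsmodels 0.14.6 and matplotlib 3.10.9 was used.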

Additional observations from a re-analysis of the deposited data

How the results depend on the processing

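Quantile normalization, median centring, loess (span 0.3), the deposited series table in place of the workbook, averaging probe sets, choosing the most different probe set and requiring at least 10 probes were tried. Over these 7 alternatives every one of the 8 aquaporins kept its direction, and none reached 2-fold. Aqp4 ranged from -0.77 to -0.74, Aqp3 from 0.56 to 0.60, Aqp7 from -0.54 to -0.50 and Aqp1 from -0.37 to -0.33. Each of the 8 has 1 probe set of more than 10 probes, so the last 3 alternatives could not alter it. The series table could hardly alter it either, because its MIST1-LSL levels differ from those of the workbook by at most 0.005. The median of the 8 was -0.08, but 0.07 over the 7 at or above the floor and 0.21 over the 3 at or above the 75th percentile, and so its sign rests on which members count. With a 1.5-fold size rule 1 aquaporin passed, Aqp4, and 6.8% of all genes did. The number of all genes at 2-fold was 250, but 556 without a floor, 1179 at 1.5-fold and 91 at 3-fold. No paired analysis was possible because each genotype had 1 array.

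Levels under or near the floor limit Aqp4, Aqp7, Aqp8, Aqp9 and Aqp12, and signal over background was not given. Genotype, mouse, dissection and array cannot be told apart.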
